A study of Gallus gallus with 6 samples.

Results

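Toll-like receptors are the membrane sensors with which animal cells recognise molecules of microbes, such as bacterial lipoproteins, lipopolysaccharide, flagellin and foreign RNA. A receptor that has bound its ligand recruits adaptors (MYD88 or TICAM1), which assemble kinase complexes. These release NF-kB factors from their inhibitor, activate MAP kinases that act on the AP-1 factors, and activate interferon regulatory factors. In the intestine the pathway operates in epithelial and immune cells that face dense bacterial populations, and it is held under several layers of inhibition.

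The genes described here are the rows of the deposited expression table that are annotated to the KEGG Toll-like receptor signalling pathway, without the rows that are also annotated to cytokine-receptor interaction or to matrix-receptor interaction. A row also needed at least 10 counts in at least 3 of the 6 libraries. Of 81 annotated rows, 20 were left out as cytokine or matrix genes, and 61 of 17623 rows in the table remained. None of the 61 fell under the count minimum. The lowest of them, CD86, held 19, 46 and 28 counts in the supplemented libraries and 22, 55 and 33 counts in the control libraries. By role there were 9 receptors and co-receptors, 10 adaptors, 30 kinases with their regulatory subunits, 8 transcription factors and inhibitors, and 4 other genes.

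RNA was measured in the ileum, where the small intestine ends, in the Taiping breed at 2 months of age. In the supplemented group, labelled FOS, the drinking water carried fructooligosaccharide at 1 mL per litre, and both groups ate the same corn-soybean basal diet. Fructooligosaccharide is a short fructose chain that the bird does not digest and gut bacteria ferment. The groups are called supplemented and control below, and FOS always means the gene of that name, an AP-1 factor. Each group had 3 libraries, and the question was which transcripts differed between the groups.

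Deposited counts summed to between 14668289 and 18106651 per library. All samples are labelled male, yet transcripts of the W-linked gene HINTW, which males lack, stood at 158 and 111 CPM (counts scaled to a common library size) in supplemented 1 and 3 and at 147 and 149 CPM in control 1 and 3. In supplemented 2 and control 2 they stood at 0.0697 and 0.173 CPM. Values from the 4 libraries with W-linked transcripts are therefore given as well for the counts over all members, the role medians and some of the genes. Nothing in the labels states whether each library is a different bird, and the p-values reflect only how far these libraries vary. In whole tissue, fewer cells of a type and less RNA per cell cannot be told apart. All 12 enterocyte markers were found in the table, among them FABP6, a bile acid carrier typical of the ileum, at 4000, 1080 and 1510 CPM in the supplemented libraries and 5760, 5160 and 4530 CPM in the control libraries. FABP6 was lower in every supplemented library, but 11 of the 13 enterocyte rows (CDX2 has 2) had a positive log2 fold change, and the median of the list was 0.44. At an unadjusted p under 0.05 there were 6 higher and 1 lower, where 9.42% of all genes tested had such a p. DESeq2 called 1, APOA1, as higher, and it called 1.08% of all genes.

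No pathway member passed the test between supplemented and control ileum. The edgeR quasi-likelihood test called 0 of 61 members at an adjusted p under 0.05, and it called 0.0217% of all 13807 genes tested. DESeq2 called 2 members, MAP2K2 as higher and PIK3CD as lower in supplemented ileum, where it called 1.08% of all genes, and limma-voom called 0. Both DESeq2 calls were kinase genes, and DESeq2 called 0 in each of the other roles. At an unadjusted p under 0.05 there were 5 members, or 8.2%, against 9.42% of all genes. FADD and MAP2K2 were the 2 higher ones (background 5.14%), and TLR1A, TRAF3 and PIK3CD the 3 lower ones (background 4.27%). The groups did not overlap in 12 members, or 19.7%, against 16.4% of all genes, with 6 higher (background 8.58%) and 6 lower (background 7.84%). The median log2 fold change of the 61 members was -0.04, beside 0.01 over all genes, and the extremes were -0.71 and 0.48. Over the 4 libraries with W-linked transcripts edgeR again called 0 members, and 5 had an unadjusted p under 0.05, against 8.14% of all genes. These 5 were MAP2K2 and TLR3 as higher and TLR1A, TLR7 and PIK3CD as lower. FADD and TRAF3 were not among them. The number of members with such a p was 8 without supplemented 1, 8 without control 2 and 2 without control 3. The share of all genes was 9.82%, 8.46% and 5.27% in these fits.

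**Figure D1:**
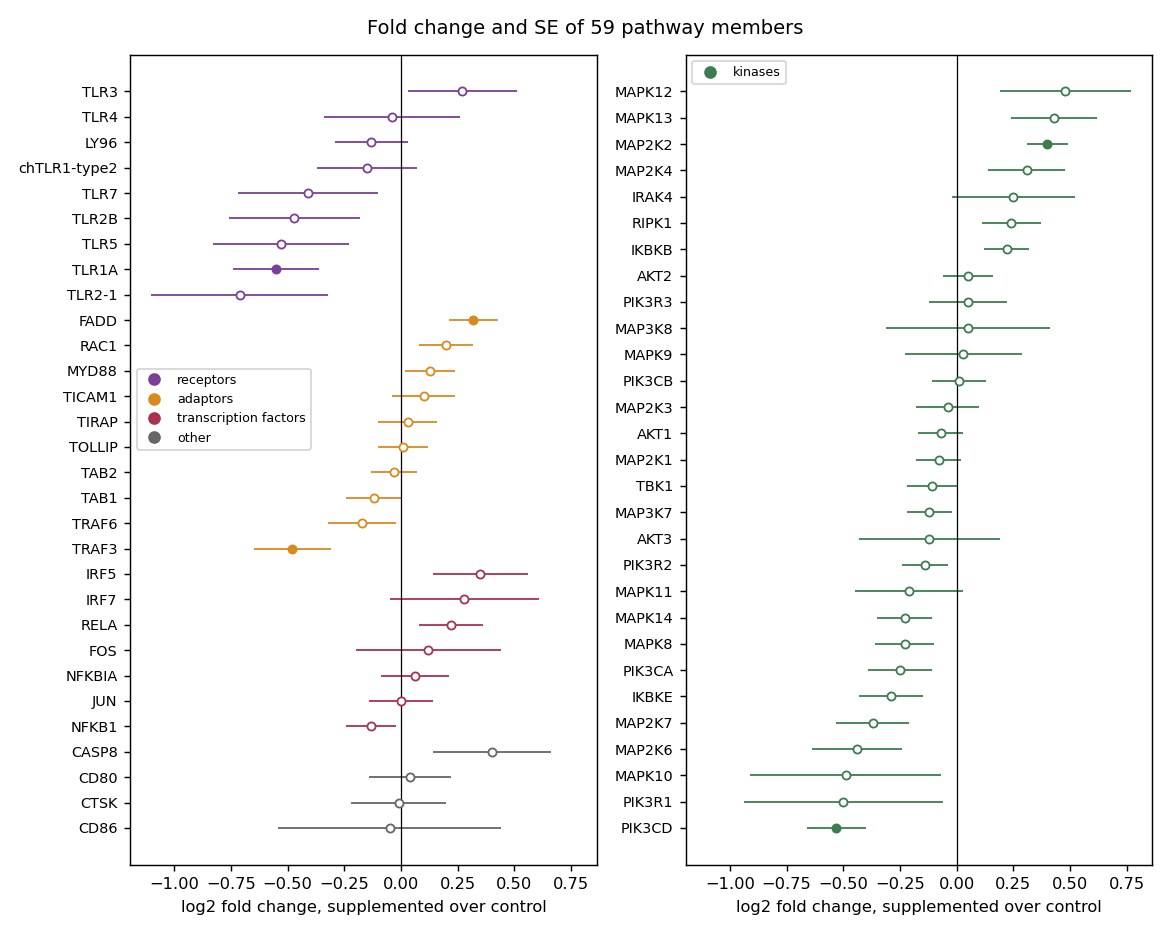
Log2 fold change of supplemented over control ileum (horizontal axis) for 59 of the 61 members, by role, with bars of 1 SE from edgeR; filled points mark the 5 members with an unadjusted p under 0.05. All points lie between -0.71 and 0.48, and 8 of 9 receptors and co-receptors lie left of 0.

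Levels were compared between genes per length, on the deposited FPKM scale (fragments scaled to transcript length and library size). Receptors were the lowest role, with a median FPKM of 4.44 over their mean levels, against 11.1 for all genes tested. Adaptors had a median of 22.9 FPKM, kinases 18 FPKM, and transcription factors and inhibitors 54.5 FPKM. RAC1, a small GTPase, had a mean of 175 FPKM and JUN one of 168 FPKM, the highest of all members. The lowest was MAPK10, a JNK kinase best known from neurons, at 0.57 FPKM.

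**Figure D2:**
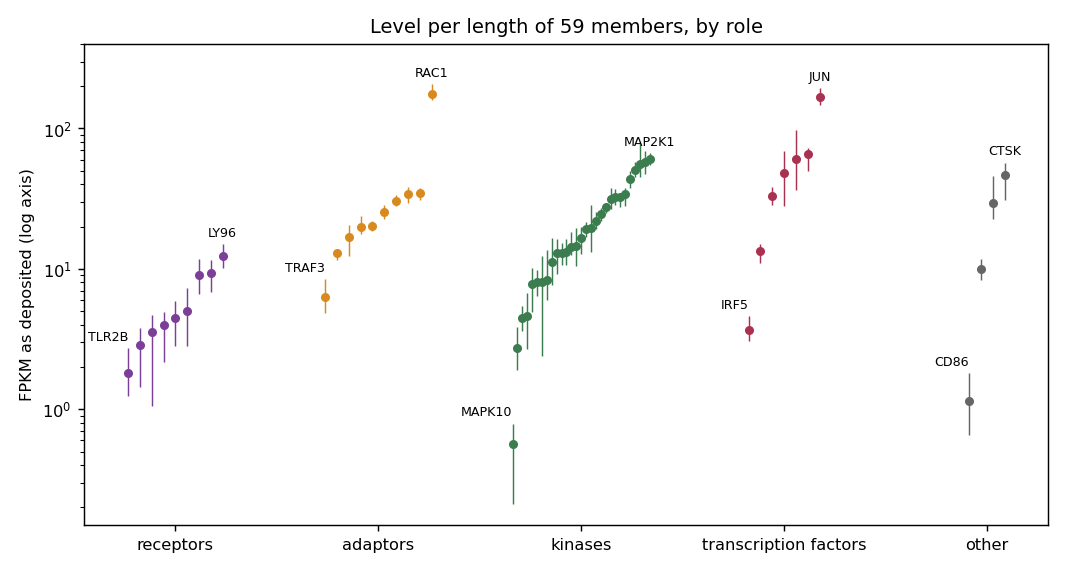
Deposited FPKM (log axis) of 59 of the 61 members by role; points are means over the 6 libraries and bars run from the lowest to the highest library. Receptors reach 12.3 FPKM (LY96), while RAC1 and JUN stand above 160 FPKM.

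Among the receptors, LY96, the partner that holds lipopolysaccharide for TLR4, had the highest FPKM. It stood at 11.4 ± 1.11 FPKM in supplemented and 13.2 ± 1.73 FPKM in control ileum (SD, n = 3 each). TLR3, which binds double-stranded RNA, followed at 10 ± 2.53 FPKM in supplemented and 8.75 ± 1.71 FPKM in control ileum. Next came chTLR1-type2, the second TLR1 gene of the chicken, at 8.23 ± 1.45 FPKM in supplemented and 9.85 ± 2.05 FPKM in control ileum. TLR7, a sensor of single-stranded RNA, averaged 4.98 FPKM over the 6 libraries, TLR1A 4.44 FPKM, TLR4, the lipopolysaccharide receptor, 3.96 FPKM, and TLR2-1 3.54 FPKM. TLR5, the flagellin receptor, averaged 2.87 FPKM and TLR2B 1.8 FPKM. Each gene's range over the 6 libraries overlapped that of its neighbour in this order. Within libraries, LY96 was above TLR3, chTLR1-type2 above TLR7 and TLR5 above TLR2B in all 6. The other neighbours did not keep this order in every library. TLR2-1 and TLR2B are the A and B copies of TLR2, which with TLR1 proteins bind bacterial lipoproteins. The counts of TLR1A, chTLR1-type2, TLR2-1 and TLR2B were not whole numbers in any of the 6 libraries, as happens when reads are divided between similar genes, so the split within each pair is uncertain.

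Of the 9 receptors, 8 had a lower mean in supplemented ileum, where 48.9% of all genes had a negative log2 fold change. None passed the test (0 with edgeR and 0 with DESeq2). At an unadjusted p under 0.05 there was 1, or 11.1%, against 9.42% of all genes. The groups did not overlap for 2, or 22.2%, against 16.4% of all genes. The median log2 fold change of the receptors was -0.41, beside 0.01 over all genes. It was -0.26 without supplemented 3 and -0.21 without control 1, and -0.59 in the 4 libraries with W-linked transcripts. Relative to the control mean, the median receptor stood at -0.79, -0.25 and -0.2 log2 units in supplemented 1, 2 and 3, and at 0.14, -0.06 and -0.03 log2 units in control 1, 2 and 3. Supplemented 1 held the lowest value of 5 of the 9 receptors, while it held the lowest value of 28.1% of all genes.

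TLR1A stood at 9.72, 14.3 and 10.9 CPM in supplemented 1 to 3 and at 16.3, 16.4 and 18.5 CPM in control 1 to 3. The groups did not overlap, and all 3 supplemented libraries were lower. The log2 fold change was -0.55 (SE 0.19, edgeR adjusted p = 0.479), and -0.76 (SE 0.22) in the 4 libraries with W-linked transcripts. TLR2-1 stood at 3.71, 9.2 and 12.4 CPM in supplemented and at 14.1, 13.6 and 13.8 CPM in control libraries. Here too the groups did not overlap, but the supplemented libraries spread widely while the control libraries lay close together. The log2 fold change was -0.71 (SE 0.39, edgeR adjusted p = 0.622), -0.35 without supplemented 1 and -1.09 without supplemented 3.

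TLR5 stood at 3.92, 7.25 and 6.91 CPM in supplemented and at 9.5, 9.89 and 6.82 CPM in control libraries, which gave a log2 fold change of -0.53 (SE 0.3) at an edgeR adjusted p of 0.625. Control 3 lay within the supplemented range, and without supplemented 1 the log2 fold change was -0.3. TLR2B stood at 4.93, 4.95 and 6.23 CPM in supplemented and at 8.29, 4.91 and 9.12 CPM in control libraries. Control 2 was the lowest of all 6. TLR7 stood at 11.3, 23.9 and 12.6 CPM in supplemented and at 26.6, 18.7 and 18.2 CPM in control libraries, so that supplemented 1 and 3 were low and supplemented 2 lay inside the control range. In the 4 libraries with W-linked transcripts, which leave out supplemented 2 and control 2, TLR7 had an unadjusted p under 0.05 and a log2 fold change of -0.91 (SE 0.26), against -0.41 (SE 0.31) over all 6.

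TLR3 was the one receptor with a positive log2 fold change, 0.27 (SE 0.24; edgeR adjusted p = 0.763). In the 4 libraries with W-linked transcripts it was 0.59 (SE 0.21; edgeR adjusted p = 0.57), with an unadjusted p under 0.05. It stood at 45.2, 27 and 42.4 CPM in supplemented and at 33.7, 37.1 and 24.4 CPM in control libraries. Supplemented 1 and 3 were above every control library, and supplemented 2 was among the lowest. TLR4 stood at 8.51, 18.7 and 16.5 CPM in supplemented and at 12.6, 17.7 and 14.4 CPM in control libraries. Supplemented 1 lay below the control range and supplemented 2 above it. The log2 fold change was -0.04 (SE 0.3) over all 6 libraries and 0.24 (SE 0.19) without supplemented 1. LY96 stood at 16.3, 13.3 and 15.6 CPM in supplemented and at 18.6, 14.9 and 15.9 CPM in control libraries. chTLR1-type2 stood at 24.3, 21.8 and 16.1 CPM in supplemented and at 27.5, 17.9 and 23.8 CPM in control libraries. Both groups of values overlapped for these 2 genes.

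**Figure D3:**
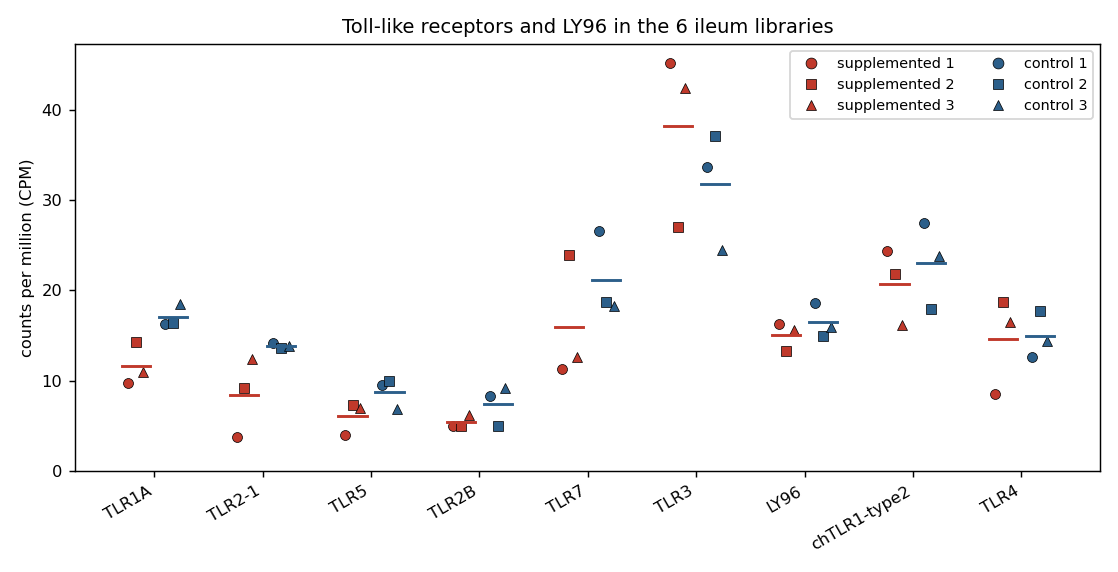
Normalised counts (CPM) of the 9 receptors and co-receptors in each library, supplemented left and control right of each pair; horizontal lines are group means. Groups do not overlap for TLR1A and TLR2-1, and supplemented 1 is the lowest library for TLR1A, TLR2-1, TLR5, TLR7 and TLR4.

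Within the receptor pairs, TLR2-1 made up 45.9%, 68.9% and 69.3% of the summed FPKM of TLR2-1 and TLR2B in supplemented 1 to 3, and 66.5%, 73.9% and 62.6% in control 1 to 3. Supplemented 1 was the one library in which TLR2-1 was below TLR2B. TLR1A made up 23.5%, 32.6% and 33.8% of its pair with chTLR1-type2 in supplemented 1 to 3, and 30.7%, 39.6% and 36.7% in control 1 to 3. No count of molecules lies behind these shares of FPKM, so they carry no interval.

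Markers of macrophages and dendritic cells, heterophils, smooth muscle and fibroblasts were read beside these values. Of the 12 macrophage and dendritic cell markers other than TLR7, 11 were found, and none was at 0 in all libraries. They summed to 1030, 1450 and 956 CPM in supplemented 1 to 3 and to 1330, 1060 and 1260 CPM in control 1 to 3. CTSS was the largest part, at 644, 773 and 556 CPM in supplemented and 694, 617 and 608 CPM in control libraries. Of the 11, 8 had a negative log2 fold change. Supplemented 1 held the lowest value of 5 of the 11 genes, and supplemented 3 that of 3, C1QA, C1QB and CTSS. MARCO, a scavenger receptor of macrophages, stood at 20.6, 124 and 75.1 CPM in supplemented and at 86.1, 61.4 and 155 CPM in control libraries. C1QA stood at 104, 94 and 55.6 CPM in supplemented and at 128, 68.3 and 129 CPM in control libraries. In supplemented 1, C1QA, C1QB, CTSS, LY86 and CD163 lay within the control range and C1QC above it. CSF1R, CYBB, XCR1, FLT3 and MARCO lay below the control range there. The 4 heterophil markers found summed to 64.7, 152 and 68 CPM in supplemented 1 to 3 and to 133, 99 and 118 CPM in control 1 to 3. Smooth muscle markers summed to 3930, 5890 and 6770 CPM in supplemented 1 to 3 and to 7910, 5670 and 8090 CPM in control 1 to 3, with all 8 lowest in supplemented 1 and none at 0. All 8 had a negative log2 fold change, against 48.9% of all genes, and 0 had an unadjusted p under 0.05. Fibroblast and matrix markers summed to 3400, 4370 and 5100 CPM in supplemented and to 4700, 4880 and 4760 CPM in control libraries, with all 7 lowest in supplemented 1. Of the 7, 6 had a negative log2 fold change, and 2, PDGFRA and FBLN1, had an unadjusted p under 0.05 (background 9.42%). Both of these and COL1A2, or 3 of the 7, were lower without overlap (background 7.84%). The part of these lists in the receptor values was not tested.

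Accessory proteins of the receptors also passed no test. The list held 9 genes outside the members, all measured, of which 0 passed with edgeR or DESeq2 and 0 had an unadjusted p under 0.05. With the replicate block 1 had, UNC93B1. UNC93B1, which carries the nucleic acid receptors to endosomes in mammals, stood at 40.9, 54 and 45.1 CPM in supplemented and at 25.4, 36.9 and 39.8 CPM in control libraries, which did not overlap (log2 fold change 0.45, SE 0.19, edgeR adjusted p = 0.527). CD14, the lipopolysaccharide co-receptor, was low at 3.47 ± 1.3 CPM in supplemented and 3.07 ± 0.71 CPM in control ileum (SD, n = 3 each). TLR21, the avian receptor for unmethylated CpG DNA, and TLR15, a receptor of birds and reptiles, are not annotated to the pathway in the table and were added with their values known. TLR21 stood at 32.1, 39.4 and 20.9 CPM in supplemented and at 33.5, 39.4 and 23.8 CPM in control libraries. TLR15 stood at 2.03, 1.88 and 2.25 CPM in supplemented and at 4.45, 1.85 and 3.25 CPM in control libraries. Neither passed the test (edgeR adjusted p = 0.96 and 0.646).

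The adaptors went in both directions around a median log2 fold change of 0.02, or 0.01 in the 4 libraries with W-linked transcripts. None of the 10 passed the test (0 with edgeR and 0 with DESeq2). At an unadjusted p under 0.05 there were 2, FADD as higher and TRAF3 as lower, which is 20% against 9.42% of all genes. The groups did not overlap for 3, or 30%, against 16.4% of all genes. MYD88, the adaptor shared by most of the receptors, stood at 154, 140 and 123 CPM in supplemented and at 125, 128 and 128 CPM in control libraries, a log2 fold change of 0.13 (SE 0.11). TICAM1, which serves TLR3, stood at 67.9, 48.8 and 50.9 CPM in supplemented and at 51.3, 53.6 and 51.8 CPM in control libraries. Supplemented 1 was the highest library for both genes, as it was for 6 of the 10 adaptors, where it held the highest value of 27.2% of all genes. Without it the log2 fold change of TICAM1 was -0.06.

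FADD, which links death receptors and RIPK1 complexes to caspases, stood at 48.7, 48.6 and 43 CPM in supplemented and at 39.6, 36.4 and 36.6 CPM in control libraries. All supplemented libraries were above all control libraries (log2 fold change 0.32, SE 0.11, edgeR adjusted p = 0.483). TRAF3, a ubiquitin ligase that directs signals towards type I interferon, stood at 9.38, 9.13 and 9.15 CPM in supplemented and at 13, 11.3 and 14.3 CPM in control libraries. The supplemented libraries lay close together, with an SD of 0.141 CPM, and below every control library (log2 fold change -0.48, SE 0.17, edgeR adjusted p = 0.483). TRAF6, the ligase of the NF-kB arm, stood at 29, 35.4 and 40.3 CPM in supplemented and at 36.9, 38.7 and 42.4 CPM in control libraries, which overlapped.

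RAC1 stood at 154, 120 and 124 CPM in supplemented and at 119, 112 and 115 CPM in control libraries, with no overlap (log2 fold change 0.2, SE 0.12, edgeR adjusted p = 0.66). TIRAP, which bridges TLR2 and TLR4 to MYD88, stood at 46, 40.6 and 36.4 CPM in supplemented and at 44, 39.8 and 36.9 CPM in control libraries. TOLLIP, a damper of the pathway, stood at 59.5, 62.9 and 55.8 CPM in supplemented and at 62.1, 54.3 and 60.3 CPM in control libraries. For TIRAP and TOLLIP the group means were nearly equal, and the sign of their log2 fold change depended on the scaling. TAB1 and TAB2 are partners of the kinase MAP3K7. TAB1 stood at 25.2, 27.9 and 24 CPM in supplemented and at 27.7, 28.7 and 27.2 CPM in control libraries. TAB2 stood at 82.2, 69.2 and 74.6 CPM in supplemented and at 76.4, 75 and 79.4 CPM in control libraries. Both overlapped between groups.

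Of the 30 kinases and subunits 13 had a positive and 17 a negative log2 fold change. The median was -0.07, or -0.09 in the 4 libraries with W-linked transcripts. At an unadjusted p under 0.05 there were 2, or 6.67%, against 9.42% of all genes. The groups did not overlap for 6, or 20%, against 16.4% of all genes. MAP2K2, a kinase of the MAP kinase cascade, had the smallest p of all members. It stood at 79.2, 78.5 and 78 CPM in supplemented and at 60.2, 61.1 and 57 CPM in control libraries. The supplemented libraries differed little among themselves and were all above the control libraries. The log2 fold change was 0.40 (SE 0.09), with an adjusted p of 0.426 from edgeR and 0.0344 from DESeq2, and it was 0.42 (SE 0.14) in the 4 libraries with W-linked transcripts. Its paralog MAP2K1 stood at 136 ± 4.69 CPM in supplemented and 144 ± 5.71 CPM in control ileum (SD, n = 3 each).

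PIK3CD, the catalytic PI3K subunit found mainly in leukocytes, stood at 89.1, 89.4 and 86 CPM in supplemented and at 134, 107 and 141 CPM in control libraries. The groups did not overlap (log2 fold change -0.53, SE 0.13), with an adjusted p of 0.434 from edgeR and 0.0471 from DESeq2. In the 4 libraries with W-linked transcripts the log2 fold change was -0.66 (SE 0.14). The other catalytic subunits, PIK3CA and PIK3CB, overlapped between groups, with log2 fold changes of -0.25 (SE 0.14) and 0.01 (SE 0.12). Markers of T and NK cells moved with PIK3CD. They summed to 885, 1030 and 860 CPM in supplemented 1 to 3 and to 1080, 1070 and 1200 CPM in control 1 to 3. Of the 9 T and NK rows tested, 8 had a negative log2 fold change, against 48.9% of all genes. There were 3 with an unadjusted p under 0.05 (background 9.42%), and DESeq2 called 1, CD3D, as lower. None of the 11 T and NK rows found was at 0 in all libraries. B and plasma cell markers summed to 1040, 1860 and 1180 CPM in supplemented 1 to 3 and to 1540, 1020 and 1660 CPM in control 1 to 3. Most of these sums was JCHAIN, at 832, 1680 and 998 CPM in supplemented and 1340, 839 and 1460 CPM in control libraries. The median log2 fold change of the B and plasma cell markers was -0.05, and 0 of 7 had an unadjusted p under 0.05. The part of either cell group in the PIK3CD values was not tested. PIK3R1, a regulatory subunit, stood at 6.08, 21.2 and 18.8 CPM in supplemented and at 17.4, 29.1 and 18.5 CPM in control libraries, with supplemented 1 far below the others.

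In the p38 and JNK branches, MAPK13, a p38 kinase, stood at 60.6, 41.2 and 38.5 CPM in supplemented and at 34, 38.3 and 31.8 CPM in control libraries. The groups did not overlap, by a narrow margin (log2 fold change 0.43, SE 0.19, edgeR adjusted p = 0.542), and without supplemented 1 the log2 fold change was 0.2. MAPK14, another p38 kinase, stood at 54.4, 58.7 and 58.4 CPM in supplemented and at 70.6, 58.8 and 72.3 CPM in control libraries, also without overlap, in the other direction (log2 fold change -0.23, SE 0.12). MAP2K6, which activates p38 kinases, stood at 13.8, 8.92 and 12.2 CPM in supplemented and at 14.9, 17.7 and 14.8 CPM in control libraries, which did not overlap (log2 fold change -0.44, SE 0.2, edgeR adjusted p = 0.555). In the 4 libraries with W-linked transcripts the log2 fold change was -0.19 (SE 0.21). MAP2K7, which activates JNK kinases, stood at 27.1, 30.7 and 37.4 CPM in supplemented and at 35.9, 40.5 and 46.8 CPM in control libraries. Supplemented 3 lay above control 1, so these groups overlapped. Enterocyte markers summed to 22300 to 29400 CPM in supplemented and to 17600 to 22100 CPM in control libraries. Of their 13 rows 11 had a positive log2 fold change, and none was at 0 in all libraries. The sums were higher in supplemented libraries, as MAPK13 and FADD were. Supplemented 1 had the highest sum, MAPK13 and FADD of all libraries, with FADD close in supplemented 2 (48.7 and 48.6 CPM). Control 2 had the highest sum and the highest MAPK13 of the controls. Its FADD, 36.4 CPM, was the lowest of all libraries, close to the 36.6 CPM of control 3. The part of these markers in the MAPK13 and FADD values was not tested.

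Among the kinases next to the receptors, IKBKB, which marks the NF-kB inhibitor for destruction, stood at 96.3, 95.2 and 100 CPM in supplemented and at 80.3, 91.3 and 78.6 CPM in control libraries, with no overlap (log2 fold change 0.22, SE 0.1, edgeR adjusted p = 0.556). Its counts were not whole in any library. MAP3K7 stood at 85.3, 90.9 and 89.3 CPM in supplemented and at 99, 89 and 101 CPM in control libraries. TBK1, which activates interferon regulatory factors, stood at 68.9, 70.1 and 76.8 CPM in supplemented and at 70.2, 84.5 and 77.8 CPM in control libraries. Both overlapped, with edgeR adjusted p of 0.742 and 0.801. IRAK2, CHUK and TAB3, pathway genes that the table does not annotate to it and that were added with their values known, had log2 fold changes of -0.17, 0.02 and -0.04 (SE 0.16, 0.1 and 0.12).

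The transcription factors and inhibitors had a median of 54.5 FPKM and ran from 3.65 FPKM for IRF5 to 168 FPKM for JUN. Of these, 0 of 8 passed the test and 0 had an unadjusted p under 0.05. The median log2 fold change was 0.09, or 0.01 in the 4 libraries with W-linked transcripts. NFKB1 stood at 133, 111 and 122 CPM in supplemented and at 134, 124 and 142 CPM in control libraries, and its partner RELA at 26.1, 28.5 and 25.8 CPM in supplemented and at 19.6, 23.1 and 26.3 CPM in control libraries. NFKBIA, the inhibitor that NF-kB itself induces, stood at 90.7, 126 and 125 CPM in supplemented and at 105, 108 and 115 CPM in control libraries. Supplemented 1 was the lowest library and supplemented 2 and 3 the highest. IRF5 stood at 9.65, 7.46 and 7.52 CPM in supplemented and at 6.01, 6.07 and 7.2 CPM in control libraries. It was the one factor without overlap on CPM, or 12.5% against 16.4% of all genes (log2 fold change 0.35, SE 0.21, edgeR adjusted p = 0.651). On FPKM its groups overlapped, at 3.65 FPKM in supplemented 2 and 3.74 FPKM in control 3.

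The AP-1 genes FOS and JUN varied between libraries of both groups. FOS stood at 66.2, 158 and 112 CPM in supplemented and at 74.3, 114 and 122 CPM in control libraries, with a low library 1 in each group. JUN stood at 268, 312 and 283 CPM in supplemented and at 242, 333 and 287 CPM in control libraries. The group means of JUN, 288 and 287 CPM in supplemented and control ileum, were nearly equal, and its log2 fold change was 0 (SE 0.14), with a sign that depended on the scaling.

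IRF7, which carries the interferon response, was high in supplemented 1. It stood at 205, 74.5 and 123 CPM in supplemented and at 109, 99.3 and 124 CPM in control libraries. Supplemented 1 was the highest library and supplemented 2 the lowest. The log2 fold change was 0.28 (SE 0.33) with supplemented 1 and -0.16 (SE 0.22) without it, and 0.49 (SE 0.26) in the 4 libraries with W-linked transcripts.

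Sensors outside the Toll-like family were listed for comparison, and 0 of 8 measured genes passed with edgeR or DESeq2, and 0 had an unadjusted p under 0.05. IFIH1, the cytosolic sensor of long double-stranded RNA, stood at 139, 49.9 and 55.9 CPM in supplemented and at 69.8, 58.4 and 56.6 CPM in control libraries. DHX58, its relative, stood at 47.7, 23.2 and 21.1 CPM in supplemented and at 23.8, 24 and 18.2 CPM in control libraries. EIF2AK2, the kinase PKR, stood at 97.2, 35.5 and 39.6 CPM in supplemented and at 58.6, 49 and 41.5 CPM in control libraries. Supplemented 1 was the highest library for 5 of the 8, these 3 among them, where it held the highest value of 27.2% of all genes. It was the lowest library for NOD1. IRF7 and TLR3 were also highest in supplemented 1, but TLR3 was nearly as high in supplemented 3 (45.2 and 42.4 CPM). Supplemented 2 and 3 lay below every control library for IFIH1 and EIF2AK2, and within the control range for DHX58.

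**Figure D4:**
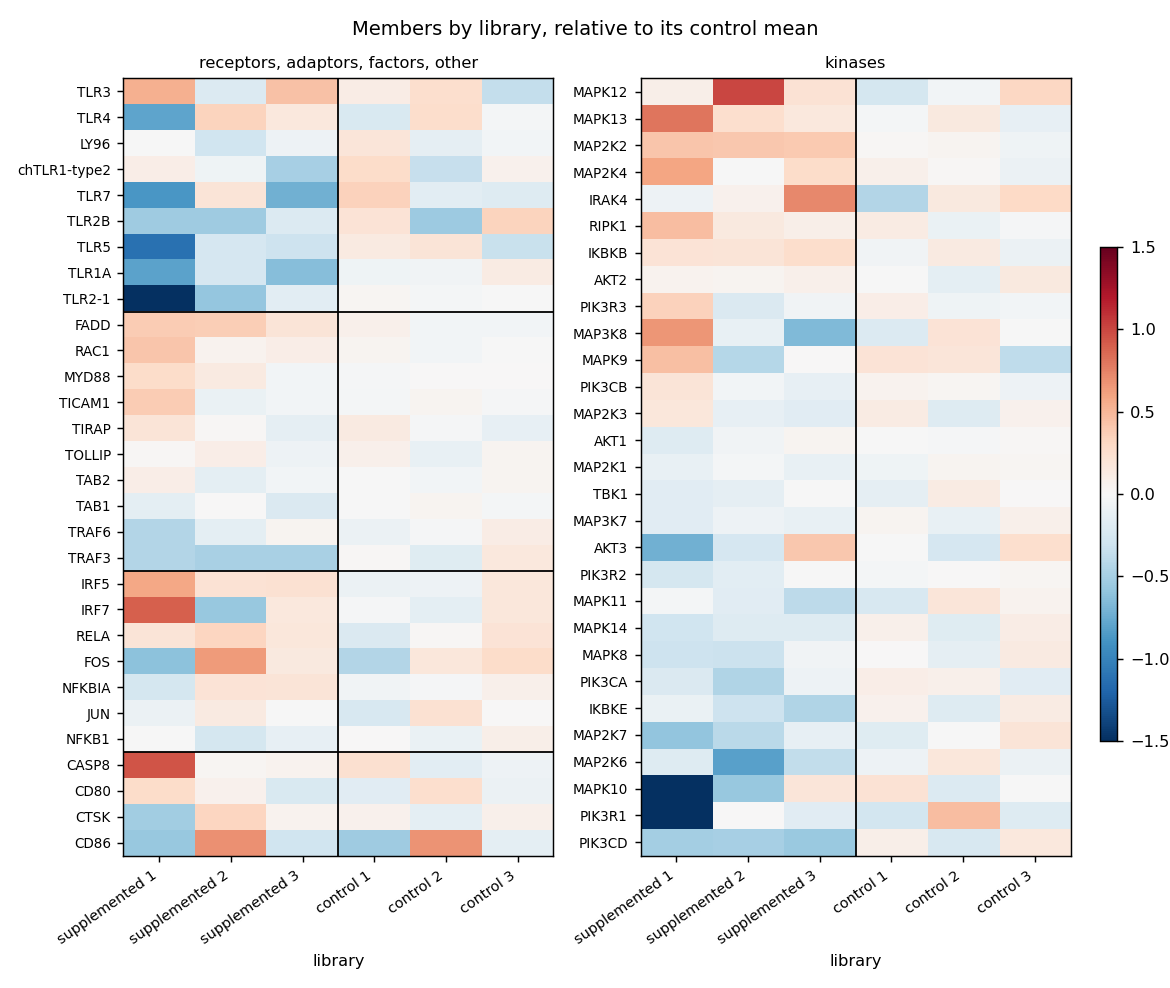
Log2 of CPM plus 0.1 of 59 members minus each one's mean in the control libraries, by library (columns, supplemented left of the line) and role (rows); colours stop at 1.5 log2 units in either direction. Supplemented 1 is low for TLR2-1, TLR5, MAPK10 and PIK3R1 and high for IRF7 and CASP8, and MAPK12 is highest in supplemented 2.

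Of the 4 other members, CASP8, the caspase recruited by FADD, stood at 80.1, 42.5 and 43.2 CPM in supplemented and at 49.1, 37.3 and 39.3 CPM in control libraries, with supplemented 1 above the rest. CTSK, a cysteine protease needed for TLR9 signalling in mouse, stood at 41.6, 74.8 and 61.9 CPM in supplemented and at 62.9, 54.1 and 63.2 CPM in control libraries. CD80 and CD86 are co-stimulatory ligands for T cells. CD80 stood at 44.2, 38 and 31.2 CPM in supplemented and at 32.3, 43.6 and 34.4 CPM in control libraries, and its counts were not whole in any library. CD86 stood at 1.28, 3.21 and 1.57 CPM in supplemented and at 1.32, 3.18 and 1.76 CPM in control libraries. The 2 libraries without W-linked transcripts were its highest, 1 in each group. The members as a whole spread more between supplemented than between control libraries. The SD of log2 CPM was larger in the supplemented group for 45 of 61 members, or 73.8%, and for 65.7% of all genes tested.

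Genes listed as possible brakes on the pathway showed values in both directions. Whether each of them acts as a brake in this tissue was not tested. Of 20 measured, 0 passed with edgeR or DESeq2, and the median log2 fold change was -0.08. At an unadjusted p under 0.05 there were 1 higher (background 5.14%) and 2 lower (background 4.27%). NFKBIZ, a nuclear regulator induced by these receptors in mammals, stood at 79.7, 76.5 and 70.7 CPM in supplemented and at 55.3, 50 and 60 CPM in control libraries, which did not overlap (log2 fold change 0.46, SE 0.11, edgeR adjusted p = 0.434). NLRC3 stood at 53.7, 66.4 and 58.4 CPM in supplemented and at 72.2, 71.8 and 84.8 CPM in control libraries. INPP5D, a lipid phosphatase of leukocytes that opposes PI3K, stood at 39.4, 44.7 and 44.8 CPM in supplemented and at 54.3, 50.8 and 52 CPM in control libraries. Both were lower in every supplemented library (edgeR adjusted p = 0.483 and 0.496). The ubiquitin-editing enzyme TNFAIP3, a classical NF-kB target, overlapped between groups at 30.4 ± 5.56 CPM in supplemented and 33.8 ± 4.41 CPM in control ileum (SD, n = 3 each).

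Among transcripts that the pathway is known to raise in other settings, 0 of 14 rows tested passed with edgeR or DESeq2. Of these rows 6 had a positive and 8 a negative log2 fold change, with a median of -0.02. The positive ones included SPP1 at 0.83 (SE 0.69), IL8 at 0.68 (SE 0.38) and IL8L1 at 0.55 (SE 0.74). SPP1 and IL8L1 were above the control range in supplemented 1 alone, at 6.21 and 3.71 CPM. IL8L1 held only 10 to 55 counts per library and SPP1 17.58 to 91.78. Of the 14 rows 2 had an unadjusted p under 0.05 (background 9.42%), both named CCL4, a chemokine. The groups did not overlap for 4 of the 14, all lower in supplemented libraries, where 7.84% of all genes were lower without overlap. These were both CCL4 rows, NOS2 and IL1B, and 0 were higher without overlap. The CCL4 row ENSGALG00000032717 stood at 4.39, 5.09 and 4.15 CPM in supplemented and at 9.01, 6.01 and 10.2 CPM in control libraries (log2 fold change -0.89, SE 0.26, edgeR adjusted p = 0.47). The CCL4 row ENSGALG00000034478 stood at 2.77, 2.16 and 1.74 CPM in supplemented and at 3.73, 4.39 and 7.14 CPM in control libraries (log2 fold change -1.2, SE 0.35, edgeR adjusted p = 0.47). NOS2, the inducible nitric oxide synthase, stood at 16.4, 14.6 and 13.3 CPM in supplemented and at 16.8, 17.6 and 24.8 CPM in control libraries. IL1B, an inflammatory cytokine, stood at 0.743, 0.976 and 0.954 CPM in supplemented and at 1.14, 1.33 and 1.33 CPM in control libraries (log2 fold change -0.51, SE 0.33, edgeR adjusted p = 0.682). These values rest on only 11 to 25 counts per library. IL6 held 0, 0 and 0 counts in supplemented and 2, 0 and 1 counts in control libraries, too few for a comparison at this depth. Among the rows left out with the cytokines, the interferon receptor gene IFNAR1 stood at 44.3, 40.5 and 41.8 CPM in supplemented and at 46, 47.8 and 50.3 CPM in control libraries (log2 fold change -0.19, SE 0.1, edgeR adjusted p = 0.622).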

How the data were processed

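Gene expression was measured by RNA sequencing in 6 libraries. The authors deposited expected counts, estimated per gene and in part fractional, and FPKM. Tools listed in the submitters' processing notes, with no role given, are fastp 0.18.0, HISAT2, Bowtie2, DESeq2 and StringTie; the build and the counting step were not given in the sources used here, and the kit named in the labels is one for small RNA. Of the deposited counts 8.06% differed from a whole number by more than 1e-09, and all were rounded. A further 12 value columns, of no library described in the labels, were not used here. PIK3R2 and PIK3R3 were named through RefSeq gene IDs (GRCg7b).

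All 61 members were among the 13807 genes that filterByExpr kept. Counts were scaled by TMM and tested with edgeR 4.0.16 (R 4.3.3, two-sided quasi-likelihood test, no covariate, Benjamini-Hochberg adjustment over all genes, threshold 0.05), after the procedure had been tested on simulated data. Each SE was taken as the size of the log2 fold change over the square root of its F statistic. Alternatives were DESeq2 1.42.0, limma 3.58.1 (voom on counts, and log2 of FPKM plus 1 or 0.1), RLE and upper-quartile scaling, other count filters, W-linked status as a covariate, omitted libraries and the replicate block. Members and lists were chosen with earlier results of these data known. Values per library were given for all receptors and adaptors, up to 6 genes with the smallest p in each other role, and MAP3K7, TBK1, NFKB1, RELA, IRF7, JUN and FOS; the remaining genes named were chosen after their values were seen. The counts cover all members, and values of 2 members are not reported here. Libraries with the same number in their titles had deviations from the group means that correlated at 0.24, 0.388 and 0.198. Each library correlated best with the library of its own number in the other group. The replicate block added this number to the edgeR fit. Supplemented 2 and control 2 were also the libraries without W-linked transcripts, and the part of that in the correlations was not tested. Depth differed little between libraries, and 3 libraries a group limit the precision.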

Additional observations from a re-analysis of the deposited data

How the results depend on the processing

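DESeq2 called 2 members, MAP2K2 and PIK3CD, and every other alternative called 0. MAP2K2 and PIK3CD kept their direction and an unadjusted p under 0.05 in all alternatives. The replicate block changed no call: it gave 0 called members and a receptor median of -0.44. With it 6 members had an unadjusted p under 0.05 (MAP2K7 in addition), where 9.08% of all genes had. Leaving out 1 library moved the count at an unadjusted p under 0.05 to between 2 and 8, and the share of all genes to between 5.27% and 10.8%. It moved the median log2 fold change to between -0.06 and 0.09 for adaptors, between -0.03 and 0.17 for transcription factors, and between -0.08 and 0.25 for the other members. On log2 FPKM, with a pseudocount of 1 or 0.1, the median of all genes was -0.06 or -0.07. There the members' median was -0.12 or -0.14 and the transcription factors' -0.02 with either, and that of the other members was -0.09 with 0.1. Some groups without overlap on CPM overlapped on FPKM, those of RAC1, MAPK13, IRF5, UNC93B1 and the CCL4 row ENSGALG00000032717. For that CCL4 row supplemented 2 stood at 10.2 FPKM and control 2 at 9.38 FPKM. For IKBKB supplemented 1 and control 2 both stood at 24.7 FPKM.

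Signs reversed for the following genes, none of which passed a test. With upper-quartile scaling the log2 fold change was 0 for TIRAP, -0.01 for TOLLIP and -0.02 for JUN. On FPKM it was -0.02 for TIRAP, -0.06 for TOLLIP, -0.03 for NFKBIA, -0.01 for FOS and -0.06 for JUN with either pseudocount, and -0.04 or -0.05 for CD80. In the 4 libraries with W-linked transcripts it was 0 for TAB2, -0.09 for TOLLIP, -0.03 for NFKBIA and -0.14 for FOS. Leaving out 1 library gave ranges of -0.31 to 0.01 for chTLR1-type2, -0.25 to 0.24 for TLR4, -0.06 to 0.19 for TICAM1, -0.09 to 0.04 for TAB2, -0.06 to 0.11 for TIRAP and -0.04 to 0.06 for TOLLIP. The ranges were -0.16 to 0.58 for IRF7, -0.01 to 0.2 for NFKBIA, -0.21 to 0.39 for FOS, -0.11 to 0.12 for JUN, -0.08 to 0.18 for CD80, -0.54 to 0.38 for CD86 and -0.21 to 0.19 for CTSK. The cause of these moves was not tested. A group of 2 libraries is assumed to vary like the other group.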
